A study of Rattus norvegicus with 3 samples.

Results

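The 39 genes described here encode proteins of mitochondrial and peroxisomal fatty acid oxidation, of fatty acid uptake and activation, and of the PPAR alpha axis, and they were read from 3 rat kidney arrays. They were chosen by symbol from a list of these functions, and each was represented by the brightest of the transcript clusters that name it alone, a transcript cluster being the set of probes assigned to 1 transcribed locus. All 39 were found among the 20667 genes of the table. Acaa1a was matched through its older symbol Acaa1, and Echs1 was the member with more than 1 cluster. The arrays came from kidneys of male rats (the labels state neither strain nor age). There was 1 array each for control, day 2 and day 5 of ethylene glycol (EG). EG, an antifreeze solvent that the body turns into glycolate and oxalate, was given orally at 8 g/kg. The labels do not settle whether the dose was repeated, nor do they say what the control received. With 1 array per group no spread between animals could be measured, so no test was run, and every difference below describes these arrays alone.

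Fatty acids are the main fuel of the proximal tubule, the kidney segment that reclaims most of the filtered solutes and holds dense mitochondria. After uptake they are activated to acyl-CoA esters, carried into mitochondria on carnitine, and shortened in repeated rounds of dehydrogenation, hydration, a further dehydrogenation and thiolysis. Peroxisomes shorten very long and branched chains with their own enzymes. PPAR alpha is a nuclear receptor that, bound to DNA together with a retinoid X receptor, switches on many of these genes when fatty acids are abundant, and PGC-1 alpha, the product of Ppargc1a, is its coactivator.

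Values are deposited log2 signals, so 1 log2 unit is a 2-fold difference on that scale, and the scale can stretch or compress differences in RNA. A background level of 5.34 log2, the 95th percentile of 1059 olfactory receptor genes, marked where a gene could be measured. On that measure 13546 genes (65.5%) and 38 of the 39 members reached the level on at least 1 array, and each of those 38 members reached it on all 3. The exception, Fabp1, stood under it everywhere. The array medians were 6.21, 6.26 and 6.3 log2 for control, day 2 and day 5. All 32 proximal tubule markers examined were above background on every array, as the kidney label requires.

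The median member was slightly lower than in the control, and members lay on both sides of it. At day 2 the median difference of the 38 measured members was -0.12 log2 (quartiles -0.52 and 0.05), against a median of 0.05 over all measured genes, and 22 members (57.9%) were below 0 and 16 above it, against 42.5% of all measured genes below 0. Only 1 member was at least 2-fold lower, where 2.45% of all measured genes were that much lower, and 1 was at least 2-fold higher, where 4.45% of all measured genes were. At day 5 the median was -0.21 (quartiles -0.54 and 0.21) against 0.01 over all measured genes, and 26 members (68.4%) were below 0 and 11 above it, against 46.7% of all measured genes below 0. There 3 members lay at least 2-fold below the control (3.62% of all measured genes did) and 2 at least 2-fold above it (4.75% of all measured genes did). Both treated arrays were set against the same control array, so their values are not independent of each other. Counts of 1 to 3 among 38 are too small to set the members apart from those shares. The 3 lower at day 5 (7.89% of members) include Decr2, which cyclic loess brought to -0.98. Proximal tubule markers had medians of -0.6 and -0.74 on the same arrays, with 11 of 32 at least 2-fold lower at each time, and 2 at least 2-fold higher at day 2 and 0 at day 5. In whole tissue fewer cells of a type and less RNA per cell cannot be told apart.

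**Figure D1:**
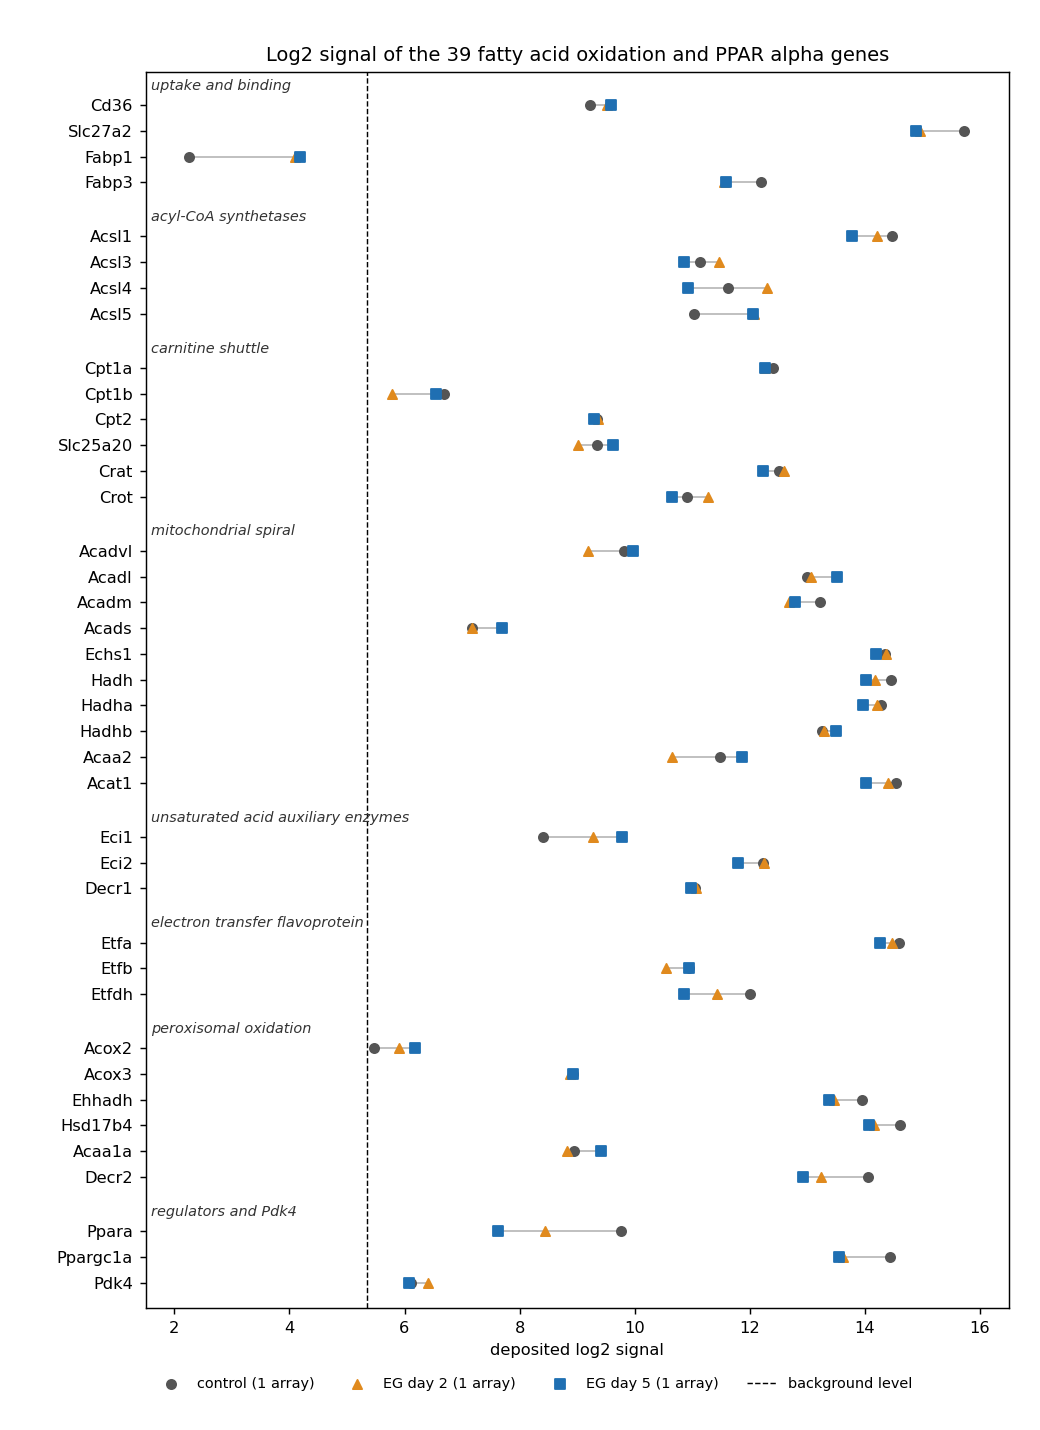
Deposited log2 signal (horizontal axis) of each of the 39 genes on the control, day 2 and day 5 arrays, 1 point per array, grouped by role, with the background level of 5.34 as a dashed line. Ppara runs from 9.76 in the control to 7.63 at day 5, Acsl4 lies on opposite sides of its control value, and Fabp1 lies under the background level on all 3 arrays.

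The regulators were led by Ppara, which encodes the receptor itself. Ppara was at 9.76 log2 in the control, 8.44 at day 2 and 7.63 at day 5. Both treated arrays were below the control, and the later one was the lowest. The differences were -1.32 (2.5-fold) and -2.13 (4.38-fold), the largest in size among the members in each comparison with control. Of all measured genes 0.797% were as low or lower relative to control at day 2, and 0.266% at day 5. Across the alternative scalings and backgrounds tried, the Ppara difference stayed between -1.46 and -1.32 at day 2 and between -2.22 and -2.13 at day 5.

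Ppargc1a was at 14.43 log2 in the control, 13.62 at day 2 and 13.55 at day 5. Both treated values were lower, and they lay close together, with differences of -0.81 and -0.88 that did not reach 2-fold. Pdk4 encodes a kinase that shuts off pyruvate dehydrogenase so that fat is burned in place of glucose, and it is a textbook target of PPAR alpha. Pdk4 was at 6.12, 6.41 and 6.08 log2 in the control, at day 2 and at day 5, not far above background. No array stood apart for it, with differences of 0.29 and -0.04.

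Other nuclear receptor genes gave a mixed picture. Ppard, the gene of the related receptor PPAR delta, was at 8.95 log2 in the control, 9.24 at day 2 and 7.88 at day 5. It was lower at the later time only (-1.07). Rxra, the gene of a retinoid X receptor, was at 10.85, 11 and 10.53. Pparg, the gene of the fat cell receptor, was under background on the first 2 of these arrays and at 5.42 at day 5. Hnf4a, a transcription factor of the proximal tubule, was at 14.25, 13.63 and 13.95, and Esrra, which works with PGC-1 alpha, at 7.93, 7.57 and 8.21. Of 22 measured genes on the list of nuclear receptors and cofactors, 1 was at least 2-fold lower and 0 higher at day 2, and 2 were lower and 0 higher at day 5. The list medians were -0.08 and 0.0. Nr1h4, the bile acid receptor FXR, differed by -0.75 and -1.65. Nr1d1, a clock repressor also known as Rev-erb alpha, was at 11.29, 9.26 and 11.42, a difference of -2.03 at day 2 and 0.13 at day 5. The hour at which kidneys were taken is unstated in the labels, and any part of it in the Ppara values was not tested.

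The DNA element that PPAR alpha and its retinoid X partner bind is a direct repeat of AGGTCA with 1 base between the repeats. RefSeq promoter windows of build GRCr8 (from 250 bases before to 50 bases after the start of a gene) were matched for 35 of the 39 members. Acaa2, Acadl, Decr1 and Cpt1b had no entry. The motif, AGGTCA followed by any base N and a further AGGTCA, was searched on both strands with up to 2 mismatches, leaving the N free. It occurred in the windows of 7 of the 35 members (20%), against 4.06% of the 27457 genes in the table and 2.9% of the 9514 of those measured here. With at most 1 mismatch it occurred in 2 members (5.71%), Fabp1 and Acadvl, against 0.514% of all genes, and no member had an exact copy. AGGTCA or its reverse complement TGACCT alone, which the direct repeat can contain, was in the windows of 8 members (22.9%). The share was 16.9% of all genes and 13% of those measured here. The windows of the members had a median of 60% G and C bases, against 51.7% over all promoters. The members were also chosen partly as genes of the PPAR alpha axis. The part of base composition and of this choice in the shares was not tested. The 7 stretches are shown because they hold the closest matches to that element among these windows, each with 1 or 2 mismatches. Each runs 5′ to 3′ on the strand of the gene, with 20 bases on either side of the match and the match in capitals.
Fabp1: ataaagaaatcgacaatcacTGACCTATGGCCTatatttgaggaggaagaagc
Acadvl: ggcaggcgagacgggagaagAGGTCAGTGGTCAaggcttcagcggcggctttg
Slc27a2: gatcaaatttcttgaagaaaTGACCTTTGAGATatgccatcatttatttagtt
Slc25a20: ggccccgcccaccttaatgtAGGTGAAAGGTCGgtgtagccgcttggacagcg
Etfa: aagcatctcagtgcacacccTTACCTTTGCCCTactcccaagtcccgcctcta
Echs1: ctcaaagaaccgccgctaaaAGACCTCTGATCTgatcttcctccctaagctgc
Crat: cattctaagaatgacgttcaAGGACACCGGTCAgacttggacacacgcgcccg

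The Fabp1 stretch lies at chr4:104749243-104749295 on the plus strand, and its match begins 77 bases before the start of the gene and reads on the opposite strand. The Acadvl stretch lies at chr10:55236690-55236742 on the minus strand, with its match beginning 17 bases before the start. Slc27a2 (chr3:134258005-134258057, plus strand) has its match 76 bases before the start. The other stretches are at chr8:118243568-118243620 (Slc25a20, plus strand), chr8:64788087-64788139 (Etfa, minus strand), chr1:204333629-204333681 (Echs1, minus strand) and chr3:34087290-34087342 (Crat, minus strand). Of the 7 genes, 6 were measured, and their median difference was -0.22 at both times. The 28 measured members with a window and no match had medians of -0.1 at day 2 and -0.3 at day 5. No test bears on these medians. The windows of Ppara, Ppargc1a and Pdk4 held no match. A match in letters is a description of the sequence and no evidence of binding.

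Genes for uptake and binding of fatty acids split by gene. Slc27a2 encodes a fatty acid transport protein and very long chain acyl-CoA synthetase of liver and proximal tubule. It was at 15.72 log2 in the control, 14.96 at day 2 and 14.88 at day 5, lower on both treated arrays by 0.76 and 0.84 log2 units in size. Fabp3, the heart-type binding protein that ferries fatty acids through the cytosol, was at 12.19, 11.55 and 11.59. Its treated values were almost alike and below the control (-0.64 and -0.6). Cd36, the fatty acid translocase of capillaries, macrophages and tubules, was at 9.22, 9.52 and 9.59, with differences of 0.3 and 0.37. Macrophage markers were higher on both treated arrays, with 12 and 11 of 20 measured at least 2-fold higher, 0 lower and medians of 1.21 and 1.18, and their part in the Cd36 values was not tested. Fabp1, the liver-type binding protein, was at 2.26, 4.09 and 4.19, all under background, so no fold is given for it.

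The 4 acyl-CoA synthetase genes, whose products activate fatty acids, went different ways. Acsl5, an isoform of mitochondria and endoplasmic reticulum, was at 11.03 log2 in the control, 12.08 at day 2 and 12.06 at day 5. Both treated arrays were about equally above the control, by 1.05 (2.07-fold) and 1.03 (2.04-fold). Of all measured genes 3.88% and 4.41% were as high or higher. The call at 2-fold was lost at day 2 with quantile normalization (0.97) and cyclic loess (0.98), and at day 5 with arrays centred on their medians (0.94). Acsl1, the main isoform of oxidative tissues, was at 14.47, 14.21 and 13.78, lowest at the later time (-0.69).

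Acsl4, an isoform that prefers arachidonic acid and loads it into the membrane lipids that ferroptosis oxidises, was at 11.62 log2 in the control, 12.29 at day 2 and 10.92 at day 5. It stood above the control at the earlier time (0.67) and below it at the later time (-0.7). Between the EG arrays the difference was -1.37 (2.58-fold), and 1.0% of all measured genes were as low or lower in that comparison. Acsl3, an isoform of the endoplasmic reticulum and lipid droplets, was at 11.14, 11.46 and 10.86, again highest at day 2 and lowest at day 5, but the spread was smaller.

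Among the genes of the carnitine shuttle, Cpt1b at day 2 differed most from the control. Cpt1a encodes the liver isoform of the outer membrane acyltransferase that sets the pace of mitochondrial entry, and it was at 12.4, 12.27 and 12.26 log2. Cpt2, its inner membrane counterpart, was at 9.35, 9.36 and 9.3. Neither differed from control by more than 0.14 in size on any array. Cpt1b, the muscle isoform, was at 6.68, 5.78 and 6.54, lower at day 2 only (-0.9), and not far above background on any array. Striated muscle markers at or above background numbered 3, 3 and 7 of the 16 found on the 3 arrays. Some of them crossed that level narrowly at day 5, and the 7 measured markers had median differences of 0.0 and 0.09. The part of these markers in the Cpt1b values was not tested. Slc25a20, the carnitine carrier, was at 9.35, 9.02 and 9.63. Crat, which makes short carnitine esters, was at 12.51, 12.6 and 12.22, and Crot, the peroxisomal acyltransferase, at 10.91, 11.28 and 10.65. Of these 6 genes, none was 2-fold apart from control at either time, and the medians were -0.06 and -0.14. A list of 6 is too short for that absence to set it apart from the shares of all measured genes given above.

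The 10 enzymes of the mitochondrial spiral had no member 2-fold apart from control at either time, with medians of -0.11 at day 2 and -0.01 at day 5. Beside the same shares of all measured genes, a count of 0 among 10 does not set them apart. The acyl-CoA dehydrogenases, which open each round, are divided by chain length and did not move together. Acadvl, for very long chains, was at 9.82 log2 in the control, 9.19 at day 2 and 9.97 at day 5, lower only at the earlier time (-0.63). Acadm, for medium chains, was at 13.22, 12.68 and 12.79, lower on both treated arrays (-0.54 and -0.43). Acadl, for long chains, was at 13, 13.06 and 13.52, and Acads, for short chains, at 7.17, 7.18 and 7.7. Both of the latter were level with the control at day 2 and higher by 0.52 and 0.53 at day 5.

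Later steps of the spiral varied as little, apart from the thiolase gene Acaa2. Acaa2 encodes the mitochondrial thiolase that releases acetyl-CoA, and was at 11.48 log2 in the control, 10.65 at day 2 and 11.86 at day 5. It was lower than the control at the earlier time (-0.83) and higher at the later time (0.38), and the EG arrays differed by 1.21 (2.31-fold). Of all measured genes 1.03% were as high or higher in the comparison of the EG arrays. Hadha and Hadhb encode the subunits of the trifunctional protein of the inner membrane. They were at 14.28, 14.21 and 13.96 and at 13.26, 13.29 and 13.49. Hadh, the dehydrogenase for shorter chains, was at 14.45, 14.18 and 14.02. Acat1, a thiolase that also serves ketone body and isoleucine breakdown, was at 14.54, 14.4 and 14.01. Both were lowest at day 5, by 0.43 and 0.53 log2 units in size. Echs1, the short chain hydratase, was at 14.35, 14.37 and 14.19, and its second cluster at 12.64, 12.56 and 12.43, so its clusters differed from control by no more than 0.21 in size.

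Auxiliary enzymes that prepare unsaturated fatty acids for the spiral included the member highest above control at day 5. Eci1, a mitochondrial enoyl-CoA isomerase, was at 8.41 log2 in the control, 9.28 at day 2 and 9.77 at day 5. The values were higher on both treated arrays, by 0.87 (1.83-fold) and 1.36 (2.57-fold). Of all measured genes 1.62% were as high or higher at day 5. Eci2, a related isomerase found in peroxisomes and mitochondria, was at 12.22, 12.24 and 11.8, and Decr1, the mitochondrial dienoyl-CoA reductase, at 11.04, 11.06 and 10.98. The difference seen for Eci1 was not shared by them.

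Electrons from the acyl-CoA dehydrogenases pass to the electron transfer flavoprotein and from there, through its oxidoreductase, to ubiquinone. Etfdh, the gene of that oxidoreductase, was at 12 log2 in the control, 11.43 at day 2 and 10.86 at day 5. Each later array was below the one before, and at day 5 the difference from control was -1.14 (2.2-fold). Of all measured genes 2.47% were as low or lower. The subunit genes differed less. Etfa was at 14.59, 14.47 and 14.26, and Etfb at 10.95, 10.54 and 10.95.

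The 6 peroxisomal genes had medians of -0.29 at day 2 and -0.28 at day 5. Decr2, the peroxisomal dienoyl-CoA reductase, was at 14.05 log2 in the control, 13.24 at day 2 and 12.92 at day 5. It was lower on both treated arrays, by -0.81 (1.75-fold) and -1.13 (2.19-fold), and cyclic loess brought the later value to -0.98. Ehhadh, the L-bifunctional enzyme and a classical PPAR alpha target in liver, was at 13.95, 13.47 and 13.37. Hsd17b4, the D-bifunctional enzyme, was at 14.61, 14.16 and 14.07. Both were lower on both treated arrays by similar amounts that stayed under 2-fold (-0.48 and -0.58, and -0.45 and -0.54). Acox2, the oxidase for branched chains and bile acid precursors, was at 5.47, 5.91 and 6.19, close to background, and Acox3, another branched chain oxidase, at 8.93, 8.87 and 8.92. Acaa1a, the peroxisomal thiolase, was at 8.94, 8.82 and 9.41, and its close relative Acaa1b at 9.22, 9.3 and 9.84, so signal shared between their probes is possible and was not tested.

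**Figure D2:**
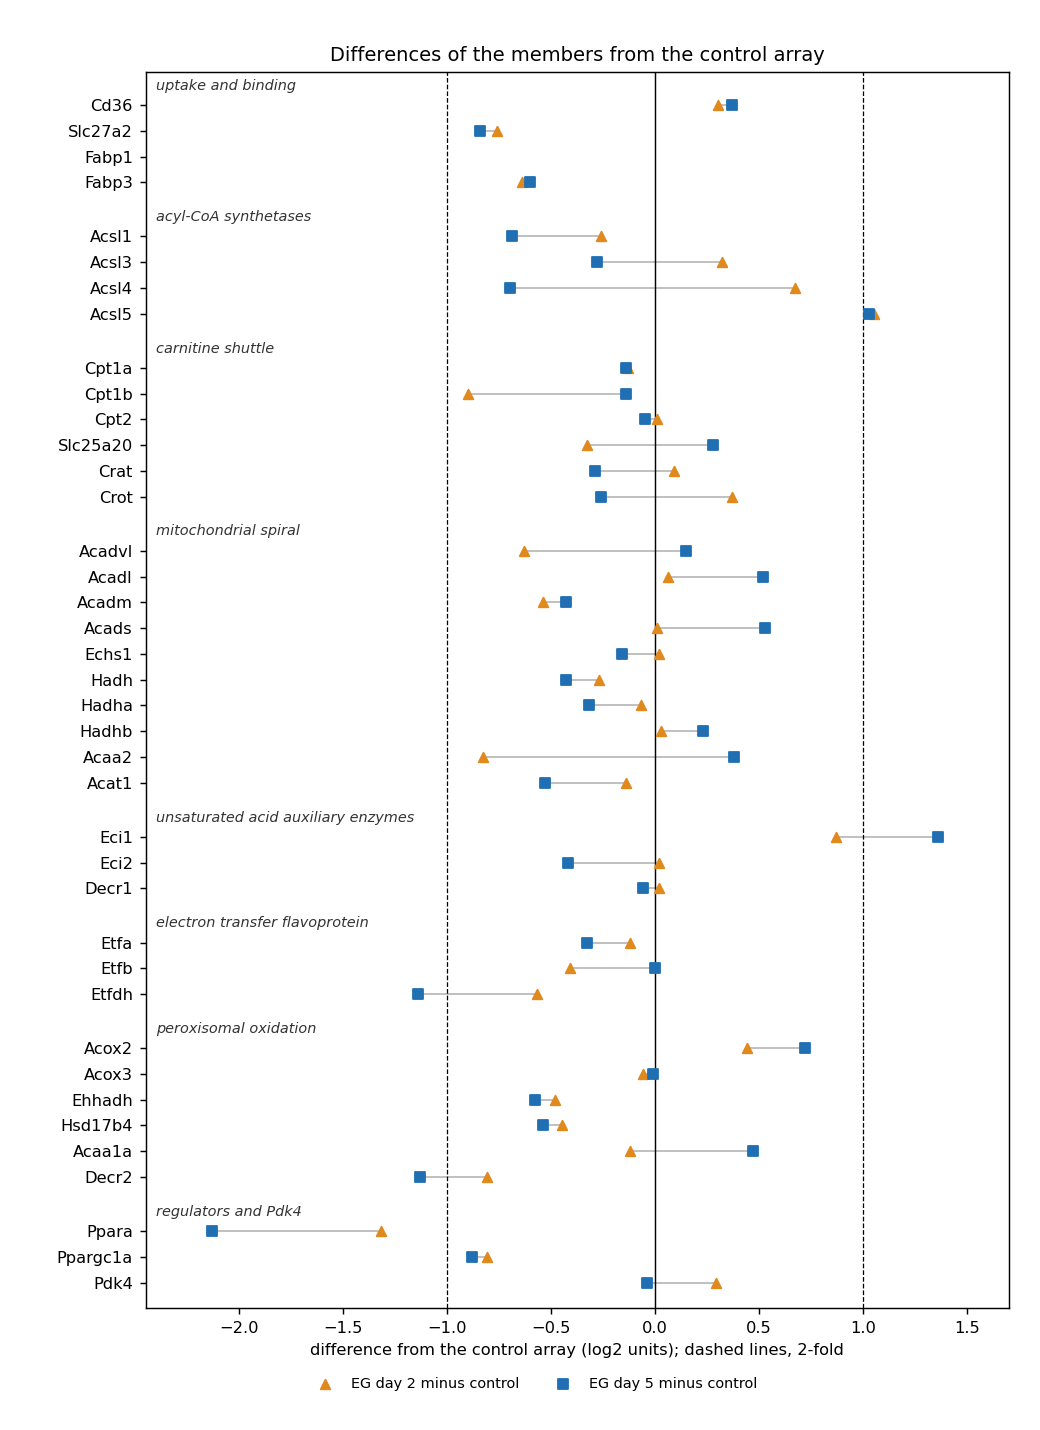
Log2 difference of each member from the control array at day 2 (triangles) and day 5 (squares), grouped by role, with dashed lines at 2-fold. Ppara (-1.32 and -2.13) is farthest to the left, Eci1 (0.87 and 1.36) and Acsl5 (1.05 and 1.03) are farthest to the right, and Fabp1 has no value because it lay under background.

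Between day 5 and day 2, which leaves the control array out, 1 member was at least 2-fold higher (Acaa2; 2.21% of all measured genes) and 1 was at least 2-fold lower (Acsl4; 3.34% of all measured genes). The median of the members was -0.08, against -0.03 over all measured genes, and its direction was not settled, since quantile normalization gave 0.05. Mitochondrial entry and spiral genes included the larger differences upward after Acaa2. Acadvl differed by 0.78, Cpt1b by 0.76, Slc25a20 by 0.61 and Acads by 0.52, and the peroxisomal thiolase gene Acaa1a by 0.59. Downward, Ppara differed by -0.81, Crot by -0.63, Acsl3 by -0.6 and Etfdh by -0.57. All 4 acyl-CoA synthetase genes were below 0 in this comparison, as were 51.9% of all measured genes. Acsl5 was at -0.02 and ranged from -0.06 to 0.12 over the alternatives, so its direction was not settled.

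Brightness of signal went along with part of the differences. The 8 members with a mean signal of 14 log2 or more were all below the control at day 5, with a median of -0.48. The 526 measured genes in that range had a median of -0.22 (quartiles -0.65 and 0.16) at day 5 and -0.04 at day 2, where the same 8 members had -0.2. Between 12 and 14 log2, 9 members had medians of -0.13 and -0.42, against 0.02 and -0.14 for 917 genes. Between 9 and 12 log2, 15 members had medians of 0.01 and 0.0, against 0.12 and 0.0 for 3831 genes. Between the background and 9 log2, 6 members had a median of -0.02 at both times, against 0.08 at both for 7433 genes. Of the 5 members 2-fold apart from control at day 5, all except Decr2 had a mean signal below 12 log2, with Ppara and Etfdh lower and Eci1 and Acsl5 higher.

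**Figure D3:**
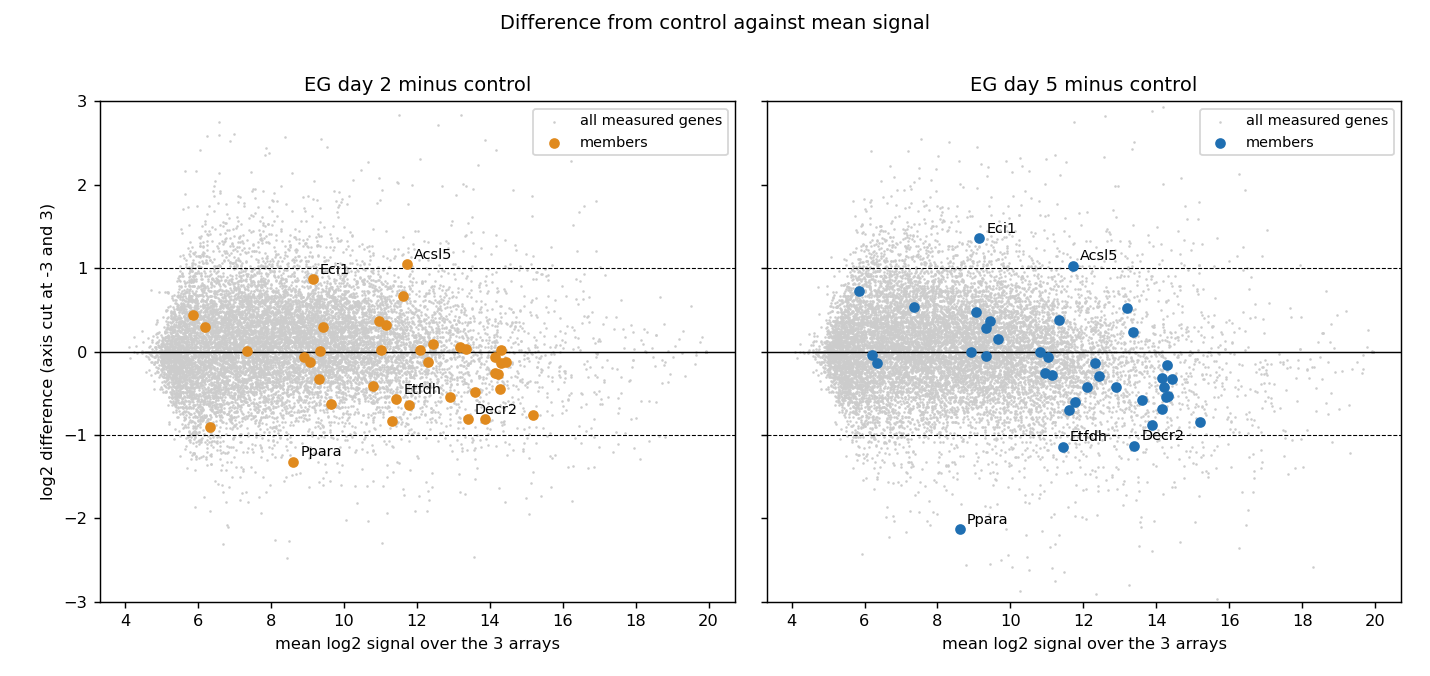
Log2 difference from control (vertical axis, cut at -3 and 3, which leaves out 15 genes at day 2 and 12 at day 5) against mean log2 signal over the 3 arrays, for all 13546 measured genes (grey) and the 38 measured members (colour). Most members lie inside the cloud of all genes, and Ppara lies at its lower edge. The 8 members at 14 log2 or more are all below 0 at day 5, where the 526 measured genes of that range have a median of -0.22.

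Other genes that PPAR alpha is known to regulate did not share 1 direction. Of 27 measured targets outside the members, 4 (14.8%) lay at least 2-fold above the control and 0 below it at day 2 (median -0.03). At day 5, 2 (7.41%) were higher and 3 (11.1%) lower (median -0.26). Of all measured genes 4.45% were that much higher and 2.45% that much lower at day 2, and 4.75% and 3.62% at day 5. The same shares apply to the counts of every other list, and no test was run on these counts. Ucp2, a mitochondrial carrier, was higher by 0.66 and 1.46. Txnip, a thioredoxin-binding protein that responds to glucose, differed by -0.65 and -1.24. Fads1, a fatty acid desaturase, differed by 0.72 and -1.22, on opposite sides of the control.

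Among 8 measured ketone body genes, 1 was at least 2-fold higher and 0 lower at day 2. At day 5, 1 was higher and 2 lower, and the medians at the 2 times were 0.02 and -0.06. The lower genes at day 5 encode monocarboxylate carriers that move ketone bodies and lactate. Slc16a1 was at 9.66, 9.56 and 7.1 log2, lower at day 5 only (-2.56), and Slc16a7 was lower by 0.78 and 1.27 in size. Of 26 measured genes for other acyl-CoA dehydrogenases, synthetases and thioesterases, 0 were higher and 1 lower at day 2, and 1 was higher and 2 lower at day 5 (medians -0.12 and -0.28). Acsm3, a medium chain synthetase, differed by -1.25 and -1.4, Acss3 by 0.02 and -1.2, and the thioesterase gene Acot9 by 0.83 and 1.08.

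Peroxisomal genes outside the members had medians of -0.12 and -0.08, with 2 of 32 at least 2-fold higher and 1 lower at day 2, and 0 and 2 at day 5. Cat, which encodes catalase, was lower by 0.8 and 1.38 in size, and Hacl1, a lyase of branched chain breakdown, by 0.53 and 1.57 in size. Amacr, a racemase for branched chains, differed by -1.08 and -0.49. Pex11a, a peroxisome division gene, was higher at day 2 (1.08) and not at day 5 (-0.46).

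Genes of fatty acid and triglyceride synthesis had medians of -0.02 and -0.22, with 1 of 26 at least 2-fold higher and 0 lower at day 2, and 0 and 3 at day 5. Plin2, the lipid droplet coat protein, was at 8.13, 9.32 and 7.71 log2, higher at day 2 (1.19) and not at day 5 (-0.42). Fads2, the partner desaturase of Fads1, differed by -0.39 and -1.09, and Srebf1, a lipogenic transcription factor, by -0.8 and -1.04. Of 19 measured genes for other fatty acid transport and binding, 0 were higher and 1 lower at day 2, and 1 was higher and 1 lower at day 5 (medians 0.0 and -0.03). Cubn and Lrp2, the endocytic receptors cubilin and megalin that take up albumin with its bound fatty acids, differed by -0.37 and -1.15 and by -1.01 and -0.62. Both also belong to the proximal tubule markers, which had medians of -0.6 and -0.74, and the part of that segment in their values was not tested. Fabp4, the fat cell binding protein, differed by -0.48 and 1.11. Fat tissue markers, to which Fabp4 belongs, had 3 of 9 measured genes at least 2-fold higher at day 5 (median 0.58) and 0 at day 2 (median -0.02), 0 lower at either time, and mean levels of 7.2, 7.04 and 8.05 log2 on the 3 arrays. Their part in the values of the members was not tested.

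Neighbouring pathways of energy metabolism offered a comparison. Citric acid cycle genes had 0 of 16 at least 2-fold apart at day 2 and 2 lower at day 5, but 14 and 16 of the 16 were below 0, with medians of -0.25 and -0.48. Idh3g, a subunit of isocitrate dehydrogenase, differed by -0.24 and -1.05. Respiratory chain and ATP synthase genes had none of 39 at least 2-fold apart at either time and medians of -0.18 and -0.06. Genes around pyruvate dehydrogenase had 1 of 12 lower and 0 higher at each time (medians -0.04 and -0.31), the lower one being Pdk2, a kinase of the same family as Pdk4, at 14.02, 12.91 and 12.73 log2. Glycolysis genes had 3 of 19 at least 2-fold higher at day 2 and 0 at day 5, with medians of 0.01 and -0.22. Ldha (lactate dehydrogenase A) was higher by 1.43 and 0.8, Hk2 (hexokinase) by 1.12 and 0.71, and Pkm (pyruvate kinase) by 1.1 and 0.85. With 1 array per group none of these differences between lists could be tested.

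**Figure D4:**
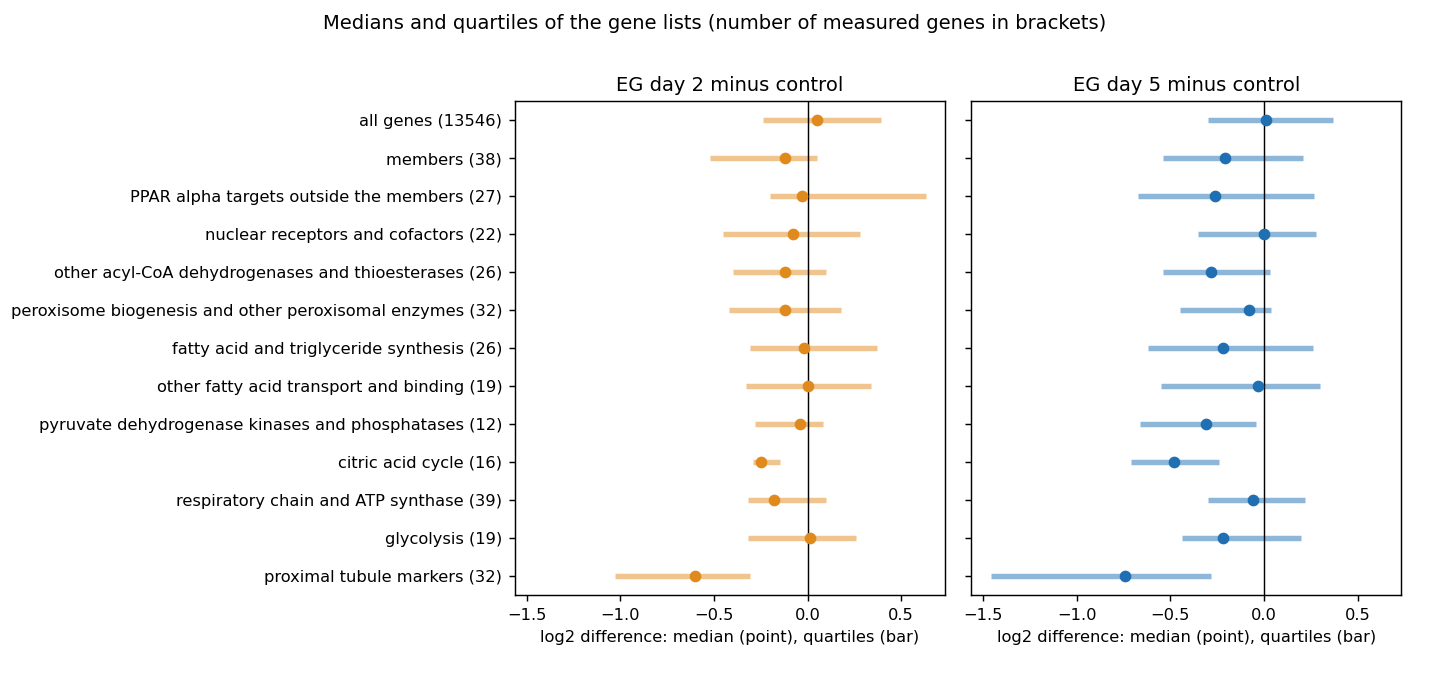
Median (point) and quartiles (bar) of the log2 difference from control for all 13546 measured genes, the 38 measured members, the related pathway lists and the proximal tubule markers, at day 2 (left) and day 5 (right). The members (-0.12 and -0.21) lie between all genes (0.05 and 0.01) and the proximal tubule markers (-0.6 and -0.74).

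The same arrays differed in other cell types and in injury genes. Tubular injury markers had 14 of 19 measured genes at least 2-fold higher and 1 lower at each time (medians 2.61 and 1.46). Thick limb and distal tubule markers had medians of -0.41 and -0.46, endothelial markers 0.02 and 0.12, striated muscle markers 0.0 and 0.09, and liver parenchyma markers -0.27 and 0.33. Red blood cell markers had 2 of 6 measured genes at least 2-fold lower and 0 higher at each time (medians -0.36 and -0.33). Those 2 were the globin genes Hba1 (-1.05 and -2.39) and Hbb (-1.81 and -3.24), and the other 4 ranged from -0.45 to -0.24 at day 2 and from -0.39 to 0.0 at day 5. The mean level of the 32 proximal tubule markers was 15.75 log2 in the control, 15.17 at day 2 and 14.89 at day 5. Slc5a12, Slc4a4 and Acmsd of that list were lower by 1.63, 0.89 and 1.95 in size at day 2 and by 2.97, 2.08 and 2.04 in size at day 5. Its 2 genes at least 2-fold higher at day 2, named after their values were seen, were the transporter genes Slc13a1 (1.75) and Slc22a13 (1.28), which stood at -0.45 and -0.12 at day 5. The part of any of these lists in the values of the fatty acid oxidation genes was not tested.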

How the data were processed

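Rat kidney RNA was measured on 3 Clariom S rat arrays, 1 per group. The values are headed as averages (Avg), and the sample titles do not say whether an array holds 1 rat or a pool. The authors summarised probes into log2 values per transcript cluster with Transcriptome Analysis Console and the rn6 annotation without a filter, per the file headers, and per the submitters' processing notes as to the tool. The program version, background correction, summarisation and normalization between arrays were not stated in any source used here. The 2 deposited tables agreed in 69564 of 69564 values, within a relative tolerance of 1e-05. The values reach 19.93, and the number of arrays limits the precision.

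From 23188 clusters, the 21502 naming 1 gene were kept, and the brightest stood for each of 20667 genes. Values under the background were set to it before taking differences, and a gene under it on both arrays has no fold. Members at least 2-fold (1 log2 unit) apart were counted beside all measured genes. Symbols were matched through a RefSeq gene table of GRCr8, which found 406 of 421 other list symbols. Members and lists were chosen with earlier results of these data known. All members are named, and from each other list at most 4 genes, those with the largest difference from control among those 2-fold apart, plus Ppard, Pparg, Rxra, Esrra and Hnf4a. Some genes that this rule names are not reported here. Acaa1b was added as a relative of a member after its values were seen. Alternatives changed the background, the normalization (quantile and cyclic loess in limma 3.58.1, R 4.3.3, or median centring), the choice of clusters, the size counted and the summary. Calculations used Python 3.11.15, pandas 2.3.3 and numpy 2.4.6, and were tested on simulated data. Identities between the proteins of related members were planned and are not analysed here.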

Additional observations from a re-analysis of the deposited data

Results flagged for a closer look

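Acsl4 was the member that lay at least 0.5 log2 units above the control at one time and as far below it at the other, with differences of 0.67 at day 2 and -0.7 at day 5. Over the alternatives its values ranged from 0.59 to 0.67 and from -0.79 to -0.64. The difference between the times was not tested, since each rests on 1 array. With 1 array per group no sample could be compared with others of its group.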

How the results depend on the processing

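No paired analysis was possible because each group holds 1 array, and for the same reason no array could be left out. Of the counts and medians of the members under the alternatives, 61 stayed within 1.5 times the count or 0.1 log2 of the median, 15 moved further and 2 changed sign. The sign changes were in the median difference between day 5 and day 2, from -0.08 to 0.05 with quantile normalization and 0.07 with cyclic loess. At day 2 the members at least 2-fold higher numbered 2 with no background level (Fabp1 being added) and 0 with quantile normalization or cyclic loess, against 1. At day 5 they numbered 1 with arrays centred on their medians, against 2. Counting from 1.5-fold gave 3 higher and 8 lower members at day 2, where 14.8% and 9.18% of all measured genes were counted. It gave 3 higher and 8 lower members at day 5 (15.1% and 12% of all measured genes), and 5 higher and 4 lower between the EG arrays (9.31% and 12.8%). Counting from 3-fold left 0 higher and 0 lower at day 2 (0.93% and 0.391% of all measured genes), 0 higher and 1 lower (Ppara) at day 5 (0.871% and 0.775%), and 0 and 0 between the EG arrays (0.251% and 0.591%). The median of the members ranged from -0.17 to -0.12 at day 2 and from -0.3 to -0.14 at day 5. Of the values of single members, 811 stayed on the same side of 2-fold and within 0.25 log2, 4 calls were lost (Acsl5 in 3 settings, Decr2 in 1) and no member counted as 2-fold apart changed sign. Fabp1 was higher by 0.34 and 0.44 at day 2 and day 5 when the background was lowered to the olfactory receptor median, and by 1.83 and 1.93 without a background level, with all its values under the level used above. The cause of these shifts was not tested beyond what each setting changes.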
